A study of Sus scrofa with 2 samples.

Results

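The 9 genes described here encode the pore-forming subunits of the AMPA and kainate receptors, the fast glutamate-gated ion channels named after the drugs that open them. GRIA1 to GRIA4 encode the 4 AMPA subunits and GRIK1 to GRIK5 the 5 kainate subunits. They were chosen by symbol, with earlier results of these data known. Each of the 9 was paired with 1 Ensembl pig gene ID, and all 9 IDs were found among the 25322 IDs of the expression table. Their levels were measured by RNA sequencing in the hippocampus of Rongchang piglets, with 1 control sample and 1 sample from piglets given iron dextran, an injectable complex of iron with a sugar polymer. Both samples carry the genotype label "wide type" and the stage label piglet. Each label lists 2 names per sample without saying what they are, and the labels used here state no dose, route, age or number of animals. Hippocampus is a mixed tissue. In such bulk RNA fewer cells of a type and less RNA per cell cannot be told apart. With 1 sample per group there was no spread between replicates, so nothing below was tested or has a replicate check.

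AMPA receptors are tetramers that carry most of the fast excitatory current in the hippocampus. The GRIA2 subunit sets their calcium permeability, because its transcript is edited by an adenosine deaminase at a codon of the pore, and receptors without an edited GRIA2 subunit let calcium through. Kainate receptors are also tetramers. GRIK1, GRIK2 and GRIK3 encode the subunits GluK1 to GluK3, which can form channels by themselves, while GRIK4 and GRIK5 encode GluK4 and GluK5, which bind kainate tightly and need a partner of the first kind. In the hippocampus kainate receptors are best known from the mossy fibre synapses of dentate granule cells onto CA3 pyramidal cells.

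All 9 subunit genes were detected in both samples, and the 4 AMPA genes were each higher in iron dextran, by 1.09-fold to 1.48-fold. GRIA2 had the largest ratio of the 9. In the kainate family GRIK2 was 1.21-fold higher, while GRIK1, GRIK3, GRIK4 and GRIK5 had ratios of iron dextran to control between 0.921 and 0.951. Levels are in FPKM, the fragments of a gene divided by its length in kilobases and by the number of mapped fragments, which is per length and so lets genes be set side by side. Differences are the log2(FPKM + 1) of iron dextran less that of control, and a gene was called higher or lower from 1.5-fold on that scale. By this rule none of the 9 genes was called, 0 higher and 0 lower. Among the 12557 genes with a mean of at least 1 FPKM, called the genes tested below, 3.94% were called in either direction, 2.47% higher and 1.47% lower, and 1.16% differed by at least 2-fold. All 9 subunits passed that filter.

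GRIA1, which encodes the GluA1 subunit, was the most abundant of the 9 genes in both samples. GRIA1 (ENSSSCG00000022569) had 51.2 FPKM in control and 57.4 FPKM in iron dextran, a ratio of 1.12 and a log2 difference of 0.16. Its mean level was above that of 86.3% of the genes tested. GluA1 is the subunit whose phosphorylation and insertion at synapses are best known from long-term potentiation.

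GRIA2 (ENSSSCG00000024685), the gene of the edited subunit GluA2, had 14.6 FPKM in control and 21.6 FPKM in iron dextran. The ratio was 1.48 and the log2 difference 0.54, just under the 1.5-fold limit of 0.58. Of the genes tested, 370, or 2.95%, had a difference at least as high. Among the 200 genes tested that lay nearest to GRIA2 in mean level, 6 had an absolute difference at least as large. GRIA2 was thus the subunit farthest from the genes of its own level.

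GRIA3 (ENSSSCG00000012638), which encodes GluA3, had 11.5 FPKM in control and 13.5 FPKM in iron dextran, a log2 difference of 0.22. GRIA4 (ENSSSCG00000030565) encodes GluA4, which in the forebrain is known from fast-spiking interneurons and from early postnatal pyramidal cells, and had 7.75 and 8.48 FPKM, a log2 difference of 0.12. Both genes were higher in the iron dextran sample, but 51 and 105 of the 200 genes nearest in level to GRIA3 and GRIA4 had an absolute difference at least as large. The same count was 40 for GRIA1.

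GRIK2 (ENSSSCG00000004361), which encodes the GluK2 subunit of hippocampal principal cells, was the most abundant kainate gene and the second most abundant of the 9. It had 29.8 FPKM in control and 36.0 FPKM in iron dextran, a ratio of 1.21 and a log2 difference of 0.27. Of the 200 genes nearest in level, 24 had an absolute difference at least as large. It was the 1 kainate subunit gene above 0 on the difference scale.

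GRIK5 (ENSSSCG00000003038), the gene of the widespread partner subunit GluK5, had 18.2 FPKM in control and 17.2 FPKM in iron dextran. GRIK4 (ENSSSCG00000015131), whose product GluK4 is known from CA3 pyramidal cells and dentate granule cells, had 11.1 and 10.23 FPKM. The log2 differences of these 2 partner subunit genes were −0.08 for GRIK5 and −0.11 for GRIK4. GRIK1 (ENSSSCG00000025119), known in the hippocampus from interneurons, had 2.63 and 2.504 FPKM, a log2 difference of −0.05. GRIK3 (ENSSSCG00000003640), which encodes GluK3, had 1.81 and 1.68 FPKM, a log2 difference of −0.07, and was the least abundant subunit gene in both samples. For GRIK1, GRIK3, GRIK4 and GRIK5, between 121 and 173 of the 200 genes of like level had an absolute difference at least as large, so these 4 genes lay within the bulk of the table.

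**Figure D1:**
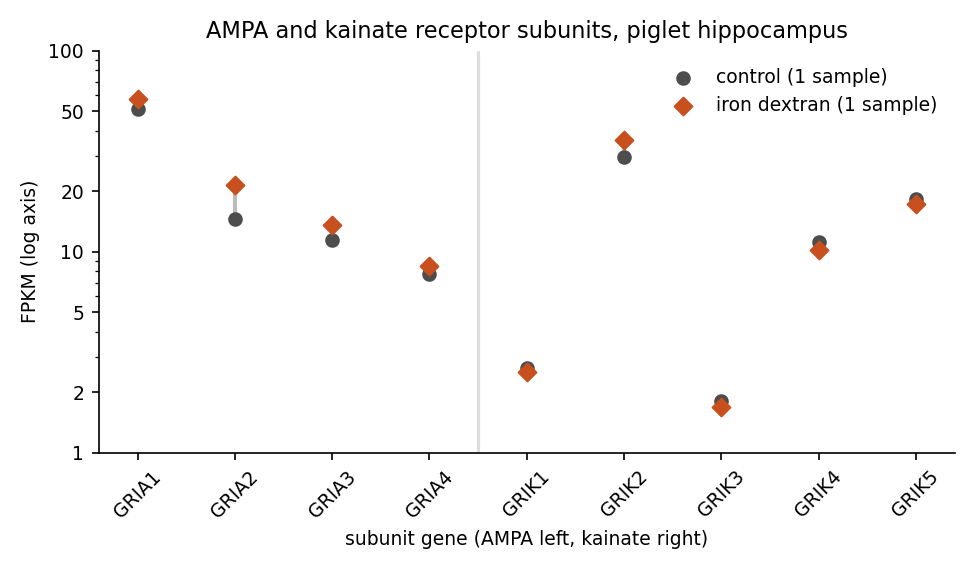
Level of each subunit gene in FPKM on a log axis, with 1 point for the control sample (grey circle) and 1 for the iron dextran sample (orange diamond). The widest gap between the samples is that of GRIA2, from 14.6 to 21.6 FPKM, and the points of GRIK1, GRIK3, GRIK4 and GRIK5 nearly coincide.

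The order of the levels was almost the same in the 2 samples. In control it ran from GRIA1 through GRIK2, GRIK5, GRIA2, GRIA3, GRIK4, GRIA4 and GRIK1 to GRIK3. In iron dextran GRIA2 and GRIK5 had exchanged places, and the other 7 genes kept theirs. GRIK5 was 1.253 times GRIA2 in control and 0.798 times GRIA2 in iron dextran. The closest neighbours were GRIA3 and GRIK4 in control, at a ratio of 1.03, which was 1.32 in iron dextran. The widest step lay between GRIA4 and GRIK1, 2.94-fold in control and 3.39-fold in iron dextran. It set the 2 low kainate genes, GRIK1 and GRIK3, apart from the rest in both samples. Without replicates, the spread against which neighbours in this order could be told apart is unknown.

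Shares within a family do not depend on how the columns are scaled, and those of GRIA2 and GRIK2 were larger in iron dextran. The summed FPKM of the 4 AMPA genes was 84.9 in control and 101.004 in iron dextran. GRIA2 made up 17.1% of the AMPA sum in control and 21.3% in iron dextran, 4.22 percentage points more. The share of GRIA1 was 60.2% in control and 56.9% in iron dextran, that of GRIA3 13.5% and 13.4%, and that of GRIA4 9.12% and 8.396%. GRIA2 was therefore the 1 AMPA gene with a larger share in iron dextran, although all 4 had higher levels there. The ratio of GRIA2 to the sum of the other 3 AMPA genes was 0.207 in control and 0.271 in iron dextran. GRIA1 exceeded GRIA2 by 3.52-fold in control and by 2.66-fold in iron dextran. With GRIA1 left out of the sum, the share of GRIA2 was 43.1% in control and 49.5% in iron dextran. How far the gene models behind the FPKM values cover each transcript was not tested, and an incomplete model would move a gene's level in both samples.

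In the kainate family the sum was 63.5 FPKM in control and 67.6 FPKM in iron dextran. GRIK2 made up 46.8% of it in control and 53.2% in iron dextran, while GRIK5 had 28.7% and 25.5% and GRIK4 had 17.5% and 15.1%. GRIK1, at 4.14% and 3.70%, and GRIK3, at 2.85% and 2.49%, were minor in both samples. The partner genes GRIK4 and GRIK5 together stood at 0.858 of the sum of GRIK1, GRIK2 and GRIK3 in control and at 0.683 in iron dextran. With GRIK2 left out, the other 4 shares moved by between −0.524 percentage points (GRIK4) and 0.448 (GRIK5). The 4 other kainate genes thus kept nearly the same proportions to each other, with GRIK5 at 1.64 and 1.68 times GRIK4 and GRIK1 at 1.45 and 1.49 times GRIK3. The AMPA sum was 1.34 times the kainate sum in control and 1.49 times in iron dextran.

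**Figure D2:**
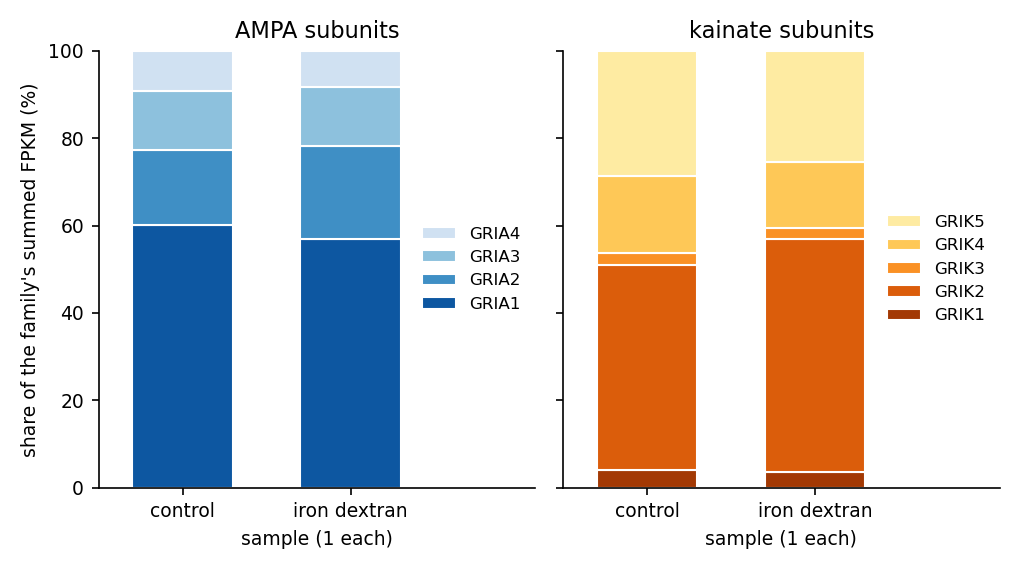
Share of each subunit gene in the summed FPKM of its family, in percent, with 1 stacked bar per sample. In iron dextran the GRIA2 segment is 21.3% against 17.1% in control, and the GRIK2 segment is 53.2% against 46.8%.

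The differences of the 9 genes were split into 2 sets, those above and those below 0, and this split was made after their values had been seen. GRIA1 to GRIA4 and GRIK2 had differences of at least 0.12, and GRIK1, GRIK3, GRIK4 and GRIK5 of at most −0.05. The gap of 0.17 between the sets is small beside the 1.5-fold limit, and since it was used to make the split it supports nothing. It was also not the widest gap among the 9 genes, which lay between GRIK2 at 0.27 and GRIA2 at 0.54. The median difference was 0.19 over the 4 AMPA genes and −0.07 over the 5 kainate genes, against −0.0046 over all genes tested. Of the AMPA genes 4 of 4 were above 0, and of the kainate genes 1 of 5, where 49.0% of all genes tested were above 0. The 0 line itself depends on the scaling: with both columns at the same FPKM total, the median of all genes tested was 0.11 higher, GRIK1, GRIK3, GRIK4 and GRIK5 had differences between 0.0010 and 0.0348, and GRIA2, at 0.65, passed the 1.5-fold limit.

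The level of a gene also went with its difference in this table. Over genes tested with a mean of 1 to 5 FPKM the median difference was 0.06, and 59.9% were above 0. For 5 to 20 FPKM the median was 0.02, for 20 to 100 FPKM −0.05, and for at least 100 FPKM −0.10, with 18.3% above 0. GRIA1 and GRIK2 belong to the class of 20 to 100 FPKM, in which 36.9% of genes were above 0, so these 2 subunits went against most genes of their level. GRIK1 and GRIK3, below 0, belong to the class of 1 to 5 FPKM, where most genes were above it.

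**Figure D3:**
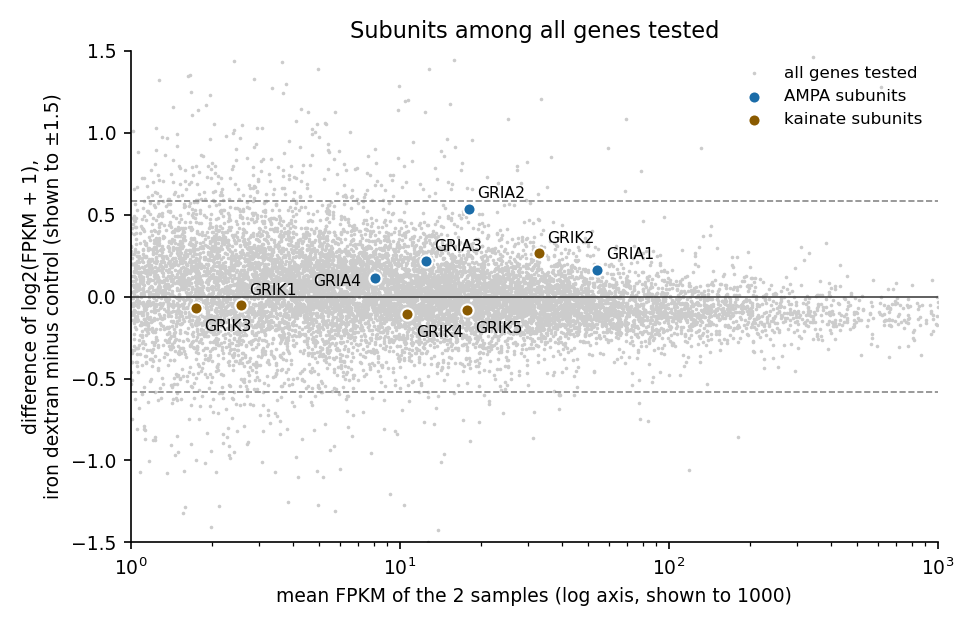
Log2(FPKM + 1) of iron dextran less that of control, against the mean FPKM of the 2 samples on a log axis; grey points are the genes tested, coloured points the subunits, and dashed lines the 1.5-fold limits (axes end at 1000 FPKM and at ±1.5). GRIA2 lies just under the upper limit at 0.54, and the other 8 subunits lie between −0.11 and 0.27.

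**Figure D4:**
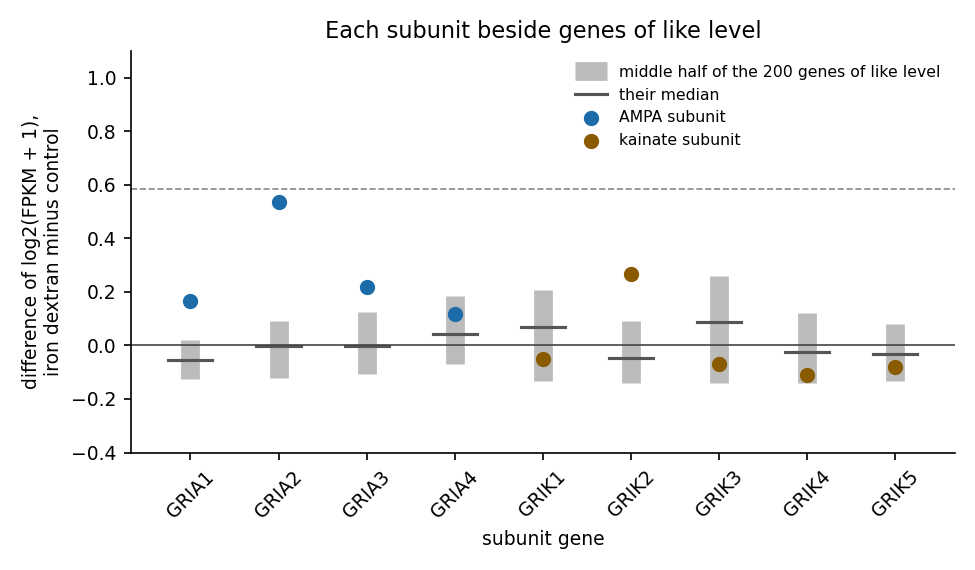
Difference of log2(FPKM + 1) of each subunit (coloured point) beside the 25th to 75th percentile (grey bar) and median (dark line) of the 200 genes tested nearest in mean FPKM; the dashed line is the 1.5-fold limit. GRIA1, GRIA2, GRIA3 and GRIK2 lie above their bars, and the other 5 subunits lie within theirs.

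The measured auxiliary genes of AMPA receptors were at about the same level or lower in iron dextran. Of 13 listed auxiliary genes, 4 had an ID paired with the symbol, 2 of them above 0 and 2 below, with 0 called either way and a median difference of −0.10. CACNG8, which encodes the transmembrane AMPA receptor regulatory protein typical of the hippocampus, stood at 137 FPKM in control and 119 FPKM in iron dextran, with a log2 difference of −0.21. Its relative CACNG7 had 140 and 141 FPKM. GSG1L, an auxiliary subunit that dampens AMPA currents, had 24.5 and 21.04 FPKM, and PRRT1, a membrane protein of AMPA receptor complexes, had 96.1 and 96.2 FPKM. The ratio of CACNG8 to GRIA1 was therefore 2.69 in control and 2.07 in iron dextran. The 3 measured genes of receptor assembly were all below 0, with a median of −0.12. CPT1C, an endoplasmic reticulum protein that binds GluA1, had 48.2 and 40.6 FPKM, ABHD6, a lipase that restrains AMPA receptor delivery, had 15.1 and 13.9, and PORCN, an acyltransferase also found with AMPA receptors, had 25.03 and 23.1.

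The auxiliary subunits of kainate receptors, NETO1 and NETO2, both modulate the gating of the channel, and they differed in direction. NETO1 stood at 11.8 FPKM in control and 11.1 FPKM in iron dextran, with a log2 difference of −0.07. NETO2 had 3.11 and 3.896 FPKM, a log2 difference of 0.25. NETO1 was the more abundant of the pair, by 3.78-fold in control and 2.86-fold in iron dextran.

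The 3 genes of the adenosine deaminase family of RNA editing were all slightly higher in iron dextran, with a median difference of 0.13 and 0 of 3 called. ADARB1, the enzyme known to edit the pore codon of GRIA2 transcripts, had a level of 3.02 FPKM in control and 3.37 FPKM in iron dextran. ADAR, which also has an interferon-induced form, had 11.8 and 14.2 FPKM, and ADARB2, a brain relative without known editing activity, had 5.85 and 6.52. Editing itself, and the flip and flop splice forms, cannot be read from 1 value per gene.

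Scaffold and trafficking genes were mostly above 0, with small differences. Of the 24 listed, 19 were tested, 16 above 0 and 3 below, with 0 called and a median of 0.13. Over all genes tested 49.0% were above 0 and 3.94% were called. With genes under a mean of 5 FPKM left out, the median of this list was 0.05. GRIP1, whose protein binds the C-terminal end of GluA2 and GluA3, had a level of 2.51 FPKM in control and 3.22 FPKM in iron dextran, the largest difference of this list at 0.27. NSF, an ATPase that binds GluA2 and keeps it at the synapse, had 24.5 and 28.9 FPKM. KIF17, a dendritic motor, had 1.46 and 1.86 FPKM, and AKAP5, the anchor of kinases and calcineurin at AMPA receptors, had 2.13 and 2.59. DLG4, the postsynaptic scaffold PSD-95, had 69.5 and 70.6 FPKM, and PICK1, which takes GluA2 back from the surface, had 49.9 and 45.8; these 2 were named after their values had been seen.

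Among 14 tested genes of extracellular organisers, 6 were above 0 and 8 below, with a median of −0.01 and 0 called on the log2(FPKM + 1) scale. NRXN3, a presynaptic neurexin, was at 2.37 FPKM in control and 3.73 FPKM in iron dextran, with a log2 difference of 0.49; with a pseudocount of 0.1 it was 0.63, past the 1.5-fold limit. C1QL3 and C1QL2 are secreted by mossy fibres and gather kainate receptors there. C1QL3 had 11.5 and 16.5 FPKM, a log2 difference of 0.48, and C1QL2 had 10.9 and 10.3, a log2 difference of −0.06. OLFM1, a secreted protein found in AMPA receptor complexes, had 451 and 377 FPKM, and GPC4, an astrocyte proteoglycan that recruits GluA1, had 6.85 and 5.81. C1QL2 was named after its values had been seen.

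Of 10 tested kinase and phosphatase genes, 6 were above 0 and 4 below, with a median of 0.04. CAMK2A, the kinase subunit that phosphorylates GluA1, was the 1 gene called higher, with 1.995 FPKM in control and 3.93 in iron dextran. That level was low beside CAMK2D, at 17.8 and 19.3 FPKM, and CAMK2G, at 28.7 and 29.4, which were named after their values had been seen. How well the CAMK2A gene model covers its transcript was not tested. PPP3CA, a catalytic subunit of calcineurin, had 31.1 and 43.0 FPKM, a log2 difference of 0.45. PRKCA, a protein kinase C gene, had 3.17 and 3.91 FPKM, and PTPN5, a striatum-enriched phosphatase, had 36.6 and 32.6.

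Of the other ionotropic glutamate receptor genes, those of NMDA and delta receptors, the measured ones were split in direction and mostly low. Of 9 listed NMDA and delta genes 4 were tested, 2 above 0 and 2 below, with a median of 0.02. GRIN2B, an NMDA subunit prominent in early life, had 1.72 FPKM in control and 0.8497 with iron dextran, a log2 difference of −0.56. With a pseudocount of 0.1 it was −0.94, past the limit. Its level lay near the filter of 1 FPKM, and a smaller pseudocount enlarges the differences of such low genes most. How well the GRIN2B gene model covers its transcript was not tested. GRIN2D, another NMDA subunit gene, had 3.31 and 3.53 FPKM. GRID1, a delta receptor gene, had 25.1 and 24.3 FPKM. GRIN1 and GRIN2A had no ID paired with those symbols, so no AMPA to NMDA ratio is given. Of 7 tested genes of glutamate release and uptake, 6 were above 0, with a median of 0.21. The astrocyte transporter SLC1A3 had 116 and 143 FPKM, SLC1A2 had 12.8 and 15.7, and the vesicular transporter SLC17A6 had 4.24 and 5.06. SLC17A7, the vesicular transporter of hippocampal pyramidal and granule cells, was the 1 gene below 0, with 658 and 611 FPKM, and was named after its values had been seen.

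**Figure D5:**
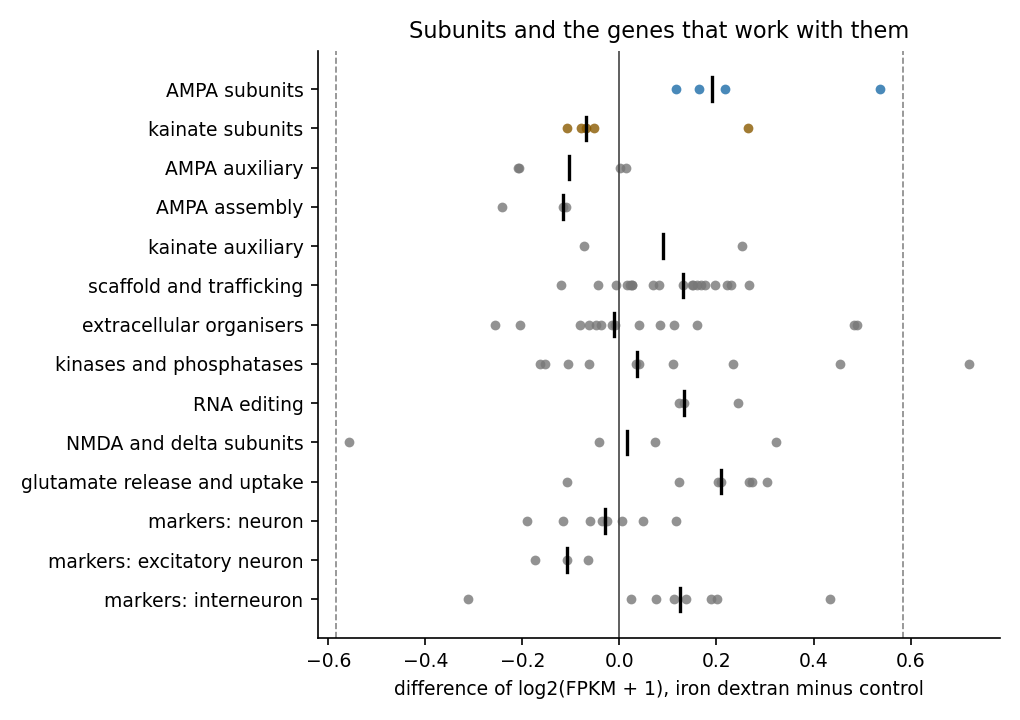
Log2(FPKM + 1) of iron dextran less that of control, for each tested gene (point) of the subunit families, the gene lists around them and 3 neuronal marker lists; black ticks are list medians and dashed lines the 1.5-fold limits. The 4 AMPA subunits lie to the right of 0, whereas the 3 tested assembly genes lie to the left of it, and only CAMK2A is past a limit.

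Markers of several cell types also differed beside these genes, and their part in the subunits' values was not tested. The 8 measured neuronal markers summed to 4188 FPKM in control and 4039 in iron dextran, with 3 above 0, 5 below and a median of −0.03; none was at 0. The 3 excitatory markers were all below 0, with a median of −0.11 and a sum of 679 and 629 FPKM. The 8 interneuron markers summed to 291 and 294 FPKM, with 7 above 0 and a median of 0.13. Of 4 tested dentate granule markers 3 were above 0, with a sum over all 6 of 30.3 and 36.0 FPKM. The sum over the CA1 markers was 41.8 and 45.04 FPKM, with 1 of 2 above 0. That over the CA3 and CA2 markers was 134 and 140 FPKM, most of it from RGS14, at 83.3 and 89.8 FPKM. Of these markers 2 of 4 were above 0, and their median of −0.05 was opposite in sign to the change of the sum. Oligodendrocyte precursors, which also carry AMPA receptors, had 3 of 6 markers above 0 and summed to 398 and 345 FPKM. Most of that sum came from OLIG1, at 268 and 219 FPKM, which was below 0, as were OLIG2 and VCAN. PDGFRA (4.54 and 6.13 FPKM), CSPG4 (1.71 and 2.25 FPKM) and PTPRZ1 were above 0. Of the astrocyte markers 3 of 5 were above 0, with a median of 0.27. Their sum, 1594 and 1530 FPKM, came mostly from GFAP, at 1275 and 1145 FPKM, which was below 0, as was ALDH1L1. Of the microglial markers 4 of 4 were above 0 (65.0 and 87.6 FPKM). The microglial marker P2RY12 was called higher, at 9.80 and 20.05 FPKM, a log2 difference of 0.96. Oligodendrocyte markers summed to 9792 and 8610 FPKM. For neighbouring tissue, the 4 measured cerebellar markers summed to 106 and 86.2 FPKM, nearly all of it from PVALB, which hippocampal interneurons also express; GABRA6, which defines cerebellar granule cells, was listed at 0 in both samples and CBLN3 had 0.466 and 0.323 FPKM. The 4 thalamic markers summed to 20.8 and 17.2 FPKM, with 1 of 3 tested genes above 0, and PRKCD had the largest difference of these, at 12.4 and 8.51 FPKM. These cerebellar and thalamic genes, and the single markers named for other cell types, were picked with their values in view.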

How the data were processed

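RNA was sequenced from piglet hippocampus in 1 control sample and 1 iron dextran sample. The authors deposited 1 table of FPKM values, in which rows are Ensembl pig genes and each sample has 1 column, matched by the letter shared with the sample title. The submitters' processing notes name cutadapt 1.2.1, TopHat and the builds Sscrofa10.2 and susScr3; the program that made the FPKM, the annotation, the use of strand and the way the 2 names of each sample were combined are not stated there. Without stated strand use, reads of an antisense gene cannot be told apart from those of the subunit gene. FPKM totals were 924070 in control and 850165 in iron dextran. Symbols came from a table that matched 11804 of 25322 IDs. A genome of the build was not used here, so no coordinates or sequences are given.

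The number of fragments is unknown. Among 690 genes above 0 in both samples with low control values, 194 ratios lay within 0.05 log2 units of a common value. That value was chosen where the ratios were densest. Read as genes with the same number of fragments in both samples, such as 1 each, it puts the relative depth of iron dextran at 1.06. This reading was not tested, and counting intervals cannot be given.

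Differences of log2(FPKM + 1) were computed in Python 3.11.15 with pandas 2.3.3; the pseudocount understates the change of low genes. Genes tested had a mean of at least 1 FPKM, and calls began at 1.5-fold. The same function was tested on simulated data. Named were all 9 subunits, every measured gene of the auxiliary and editing lists, and up to 4 genes per other list with the largest absolute difference. A few of these are not reported here. The members and lists were chosen with earlier results of these data known. Alternatives were pseudocounts of 0.1 and 0.01, other filters, folds and scalings (same total with or without mitochondrially encoded genes, a trimmed mean of M values with 30% of M and 5% of A trimmed per side, and several centrings); centring on the scaffold list was added after the data had been seen.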

Additional observations from a re-analysis of the deposited data

How the results depend on the processing

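No paired analysis was possible because each group is 1 sample and the result comes from no test. GRIA1, GRIA2, GRIA3 and GRIK2 stayed above 0 under all 11 scalings, pseudocounts and filters tried, with GRIA2 between 0.40 and 0.65. A change of pseudocount or filter cannot turn the sign of a gene's difference, so only the scalings and centrings could have done so. With the same FPKM total, GRIA2 had a log2 difference of 0.65 and counted as 1 member at least 1.5-fold higher, and 4 kainate genes turned above 0, GRIK1 (0.0348), GRIK3 (0.0066), GRIK4 (0.0010) and GRIK5 (0.0344), as did the medians of kainate subunits (0.0344), AMPA auxiliary genes (0.0158), organisers (0.0984), neuronal (0.0895) and excitatory markers (0.0117). Without mitochondrially encoded genes in that total, GRIA2 was at 0.64, again 1 member past the limit, and GRIK1 (0.0275), GRIK3 (6.24e-05), GRIK5 (0.0248), and the medians of kainate subunits (0.0248), AMPA auxiliary genes (0.0058), organisers (0.0892), neuronal (0.0794) and excitatory markers (0.0017) turned. With a limit of 0.32 on the log2 scale 1 member, GRIA2, counted as higher.

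The organisers' median turned when centred on the neuronal markers (0.0184) or on genes of like level (0.0180), which also turned the NMDA and delta genes (−0.0278) and neuronal markers (0.0780). With genes under a mean of 5 FPKM left out, the kainate auxiliary (−0.0724), kinase and phosphatase (−0.0145) and NMDA and delta (−0.0427) medians turned. Centred on the scaffold list, which was tried only after seeing the data, GRIA4 (−0.0156), the median of all 9 subunits (−0.0156), and the medians of the kainate auxiliary (−0.0413), kinase and phosphatase (−0.0948), NMDA and delta (−0.1163) and interneuron marker (−0.0062) lists turned.

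With GRIK2 left out of the kainate sum, the share changes of GRIK1 (0.128 points) and GRIK5 (0.448 points) turned above 0. Over all genes tested, 495 differed by at least 1.5-fold and 146 by at least 2-fold. These counts were 890 and 286 at a pseudocount of 0.1, 956 and 313 at 0.01, and 184 and 59 without genes under a mean of 5 FPKM, where fewer genes were tested. Of genes called at 1.5-fold, 62.6% were higher in iron dextran, against 77.5% with the same total, 76.3% with the total without mitochondrially encoded genes, 53.5% centred on genes of like level and 35.8% centred on the scaffold list. The cause of these shifts was not tested. The precision of every value is limited: with 1 sample per group, neither counting error nor animal variation is known.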
